A study of Mus musculus with 28 samples.

Results

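A pair of cocktails of cardiac transcription factors, DMT and NGMT, were compared in mouse embryonic fibroblasts (MEFs) that were being converted towards cardiomyocytes. DMT delivers MYOCD (myocardin), MEF2C and TBX5, and NGMT delivers NKX2.5, GATA4, MEF2C and TBX5, so MEF2C and TBX5 are in both, MYOCD is in DMT alone, and NKX2.5 and GATA4 are in NGMT alone. The comparison holds 6 of the 28 samples, 3 of DMT (replicates 1 to 3) and 3 of NGMT (replicates 4 to 6), chosen by their titles. These 6 arrays belong to a set of 15 whose signals have similar distributions. The other 9 arrays of that set are GMT (GATA4, MEF2C and TBX5), HGMT (GMT with HAND2) and HNGMT (NGMT with HAND2), with 3 arrays each. All 15 cultures carried a lentivirus for the doxycycline-controlled transactivator rtTA, separate tetO lentiviruses for each factor, and a reporter lentivirus in which a TroponinT promoter drives GCaMP5 and resistance to zeocin. They received doxycycline at 2 μg/mL, were selected with zeocin at 300 μg/mL for 7 days, and were collected on day 21. Each array therefore reads a mixed culture that had passed selection for activity of a troponin T promoter, and the labels describe the replicates as independent. In such bulk RNA, fewer cells of a type and less RNA per cell cannot be told apart.

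Myocardin is a coactivator of serum response factor (SRF). SRF binds a short DNA element called the CArG box, found near many genes of smooth, cardiac and skeletal muscle contractile proteins, and myocardin is best known for driving the smooth muscle program. GATA4 is a zinc finger factor, NKX2.5 a homeodomain factor, TBX5 a T-box factor and MEF2C a MADS-box factor of the developing heart. They act together on cardiac promoters such as that of Nppa, which encodes atrial natriuretic peptide.

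The values are log2 signals, so a difference of 1 is a 2-fold change, and a signal below the median of all probe sets on its array may be background, since no detection calls were used. Array medians of the 6 arrays lay between 6.864 and 6.887, and any pair of the 15 arrays correlated between 0.9763 and 0.998 over probe sets. Of 19938 genes read from 1 probe set each, 11426 had a signal above the array median on at least 3 of the 15 arrays. These were tested with limma, and a gene was called at a Benjamini-Hochberg adjusted p under 0.05. A gene low in every other group could pass through the 3 DMT arrays alone, and it could then only be called higher. The median SD over tested genes was 0.059 in DMT arrays and 0.055 in NGMT arrays, so the triplicates were close.

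DMT and NGMT cells differed at 1639 genes, 14.3% of those tested. Of these, 797 were higher in DMT cells (6.98%) and 842 were lower (7.37%). With the replicate number as a block, 1619 genes were called over the 15 arrays and 3039 in a fit of the 6 arrays alone. A change of at least 2-fold was called for 231 genes (2.02%), with 109 higher (0.954%) and 122 lower (1.07%). At 4-fold, 29 were higher and 18 lower. For all 231 genes, the 3 DMT arrays and the 3 NGMT arrays did not overlap (19.7% of all tested genes had all DMT arrays higher and 18.6% all lower), and the mean of the GMT arrays lay nearer to that of NGMT than to that of DMT. At these genes the DMT arrays were the ones that lay apart from GMT. Among all 1639 called genes, the GMT mean was nearer to NGMT for 1603 and nearer to DMT for 36. Within DMT, replicate 1 was the array closest to NGMT at 77 of the 109 rises and at 87 of the 122 falls. At the other end, 9785 genes (85.6%) had a 95% interval of the difference lying wholly within 0.5 of 0.

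**Figure D1:**
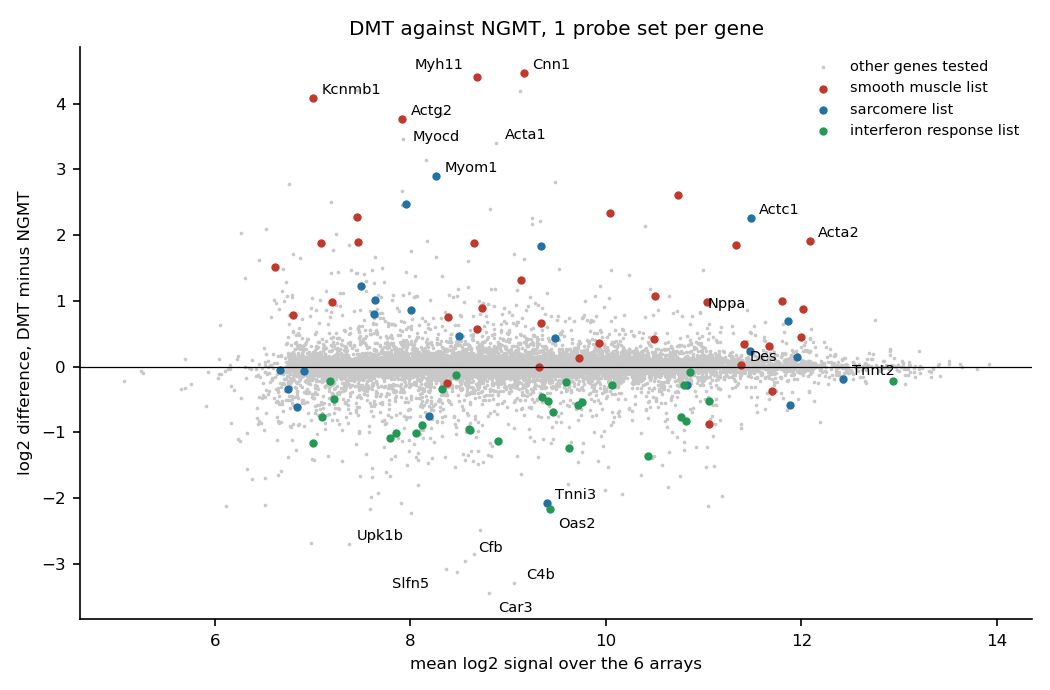
Each point is 1 of the 11426 tested genes, with its mean log2 signal over the 6 arrays on the x axis and its log2 difference, DMT minus NGMT, on the y axis. Smooth muscle genes (red) spread upwards to 4.46 for Cnn1, interferon response genes (green) lie below 0, and sarcomere genes (blue) lie on both sides.

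Smooth muscle genes were among the largest rises in DMT cells. The smooth muscle list held 37 measured genes, of which 35 were tested. Of these, 29 were called higher and 2 lower, against 6.98% higher and 7.37% lower among all tested genes, and their median log2 difference was 0.98 against 0.003 over all tested genes. All 3 DMT arrays lay above all 12 other arrays of the set at 26 of the 29. That pattern was common among rises, at 624 of the 797 genes called higher (5.46% of all tested genes). Both counts include genes that passed the filter only through the DMT arrays, such as Kcnmb1 and Actg2. Mean log2 signal over the 37 genes was 9.96, 9.96 and 10.11 on the DMT arrays, against 8.78, 8.80 and 8.76 on the NGMT arrays.

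Cnn1, which encodes the actin-binding protein calponin 1, had the largest rise. Its signal was 11.34, 11.37 and 11.49 on the DMT arrays, against 7.05, 6.91 and 6.85 on the NGMT arrays, a 22.1-fold difference (log2 difference 4.46 ± 0.11 SE, adjusted p = 7.82e-13). The GMT, HGMT and HNGMT means of 6.72, 6.52 and 6.68 were as low as NGMT.

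Myh11, the smooth muscle myosin heavy chain, stood at 10.73, 10.85 and 11.07 in DMT cells, against 6.56, 6.42 and 6.46 in NGMT cells. All 3 NGMT signals were below the array median, where they may be background, so the fitted 21.2-fold difference may understate the change. Kcnmb1, a regulatory subunit of the calcium-activated potassium channel of smooth muscle, was at 8.888, 8.894 and 9.369 in DMT cells, against 4.998, 4.981 and 4.917 in NGMT cells. Actg2, the enteric smooth muscle actin, was at 9.66, 9.71 and 10.03 in DMT cells, against 6.01, 5.97 and 6.12 in NGMT cells. For both of these genes the NGMT arrays also lay below the array median, as did every other array outside DMT. Kcnmb1 and Actg2 passed the filter through the DMT arrays alone, so they could not have been called lower. Myh11 also needed the DMT arrays to pass.

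A further group was already well detected in NGMT cells and higher still in DMT cells. Myl9, a regulatory myosin light chain, read 11.97, 11.96 and 12.20 in DMT cells, against 9.39, 9.50 and 9.43 in NGMT cells, a 6.07-fold difference. Acta2, smooth muscle alpha-actin, and Tagln, the actin-binding protein transgelin, were named after their values were seen. Acta2 was at 13.01, 12.96 and 13.14 in DMT cells, against 11.14, 11.16 and 11.10 in NGMT cells. Tagln was at 11.08, 11.14 and 11.41 in DMT cells, against 8.82, 8.85 and 8.94 in NGMT cells. The 2 members called lower were Sncg, a synuclein (log2 difference -0.87), and Ccn3, a matricellular protein (-0.37). Des, encoding the muscle intermediate filament desmin, was at 11.36, 11.37 and 11.46 in DMT cells, against 11.38, 11.30 and 11.44 in NGMT cells. Its log2 difference was 0.03 with a 95% interval of -0.19 to 0.24, so the 2 sets of arrays overlapped. The muscle actins and the myosin heavy chains are families of very similar sequence, and how far their probe sets tell the members apart was not tested.

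The windows around the starts of these genes show where a CArG box falls, and are given because SRF and myocardin act through that element. Each window runs from 250 bases before to 50 bases after the gene start on the gene's own strand, as given by RefSeq on GRCm38.p6. CArG boxes in the form searched, given below, are in capitals. The windows of Cnn1, Myl9 and Kcnmb1 were chosen by the rule for named genes, and those of Actc1 and Acta1, described further on, were added after their values were seen.
Cnn1, chr9:22099003-22099302, plus strand: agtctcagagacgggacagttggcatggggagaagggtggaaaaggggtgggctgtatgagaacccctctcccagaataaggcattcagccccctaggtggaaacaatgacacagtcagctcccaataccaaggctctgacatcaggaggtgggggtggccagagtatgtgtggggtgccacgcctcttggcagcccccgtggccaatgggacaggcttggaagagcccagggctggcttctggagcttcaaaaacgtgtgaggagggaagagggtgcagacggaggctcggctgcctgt
Myl9, chr2:156775214-156775513, plus strand: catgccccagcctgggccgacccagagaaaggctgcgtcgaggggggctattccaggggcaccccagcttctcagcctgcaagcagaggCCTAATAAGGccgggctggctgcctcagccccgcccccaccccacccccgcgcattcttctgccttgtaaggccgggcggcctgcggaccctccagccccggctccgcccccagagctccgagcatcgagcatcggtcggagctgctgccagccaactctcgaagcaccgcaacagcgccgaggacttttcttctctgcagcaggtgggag
Actc1, chr2:114052826-114053125, minus strand: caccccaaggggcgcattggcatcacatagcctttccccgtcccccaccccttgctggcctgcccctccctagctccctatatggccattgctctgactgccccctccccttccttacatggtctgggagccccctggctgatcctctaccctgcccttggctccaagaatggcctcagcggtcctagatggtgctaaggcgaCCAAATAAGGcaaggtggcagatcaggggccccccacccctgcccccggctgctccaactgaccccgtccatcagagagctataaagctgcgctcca
Acta1, chr8:123894726-123895025, minus strand: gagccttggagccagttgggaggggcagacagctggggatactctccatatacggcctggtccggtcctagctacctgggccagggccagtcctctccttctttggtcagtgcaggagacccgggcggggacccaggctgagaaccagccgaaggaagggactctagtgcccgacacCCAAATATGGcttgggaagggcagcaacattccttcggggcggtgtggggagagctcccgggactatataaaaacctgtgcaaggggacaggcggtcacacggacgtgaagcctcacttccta

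The CArG box was searched as CCWWWWWWGG, with W for A or T, and forms with a mismatch were not searched. In that form the Myl9 window holds 1 at -161 to -152 from the gene start. That of Actc1 holds 1 at -47 to -38, and that of Acta1 holds 1 at -73 to -64. The Actc1 window also holds CCCTATATGG and the Acta1 window CCATATACGG, which differ from that form by a base. The Acta2 window, not printed, had no match. Neither the Cnn1 window nor that of Kcnmb1 (chr11:33962763-33963062, plus strand) holds these letters, which says nothing of the rest of those genes. Myh11, Actg2 and Tagln had no window in the table used. Searched on both strands, a CArG box was in 1.81% of the windows of 27025 genes and in 1.65% of those of the tested genes that had one. It was in 12 of 85 windows (14.1%) of genes called higher at least 2-fold in DMT cells, and in 2 of 82 windows (2.44%) of genes called lower at least 2-fold. Among the smooth muscle genes called higher it was in 3 of 25 windows, and among the sarcomere genes called higher in 4 of 11.

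Genes of the cardiac sarcomere moved in both directions. Of 35 measured sarcomere genes, 22 were tested, and 13 were called higher and 5 lower in DMT cells (59.1% and 22.7%, against 6.98% and 7.37% of all tested genes). Their median log2 difference was 0.34. Mean log2 signal over the 35 genes was 8.06, 8.12 and 8.23 on the DMT arrays, against 7.81, 7.75 and 7.84 on the NGMT arrays.

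Myom1, encoding the M-band protein myomesin, led the rises. It was at 9.42, 9.72 and 10.00 in DMT cells, against 6.79, 6.94 and 6.74 in NGMT cells, a 7.42-fold difference (adjusted p = 2.4e-10). Myh6, the alpha myosin heavy chain of the heart, was at 8.91, 9.30 and 9.37 in DMT cells, against 6.70, 6.80 and 6.65 in NGMT cells, where it lay below the array median. Actc1, cardiac alpha-actin, was at 12.63, 12.50 and 12.71 in DMT cells, against 10.45, 10.13 and 10.46 in NGMT cells, a 4.80-fold difference. The CArG box matched in its window is printed in capitals above.

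Tnnc1, the troponin C of slow and cardiac muscle, was at 9.99, 10.23 and 10.57 in DMT cells, against 8.50, 8.31 and 8.46 in NGMT cells. Smaller rises were called for Ttn, the giant spring protein titin (log2 difference 1.23), Nexn, an actin-binding protein of the Z-disc (0.86), and Actn2, the Z-disc alpha-actinin (0.79). At each of these genes all 3 DMT arrays were above all 12 other arrays of the set.

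The largest fall within the sarcomere was Tnni3, the cardiac troponin I. It was at 8.60, 8.26 and 8.23 in DMT cells, against 10.43, 10.38 and 10.49 in NGMT cells, a 4.20-fold lower level in DMT cells (log2 difference -2.07 ± 0.11 SE, adjusted p = 5.86e-09). GMT cells averaged 10.53, near NGMT, whereas HGMT and HNGMT cells averaged 8.55 and 8.57, near DMT. So 2 subunits of one troponin complex moved in opposite directions, with Tnnc1 higher and Tnni3 lower in DMT cells. The other members called lower were Smpx (-0.76), Myom2 (-0.61), Myl4 (-0.58) and Mybpc3 (-0.35), which encode a small muscle protein, a second myomesin, the atrial essential myosin light chain and the cardiac myosin-binding protein C. For 4 of the 5 falls the HGMT mean was nearer to DMT than to NGMT, and the same number held for the HNGMT mean.

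Tnnt2, which encodes cardiac troponin T, was close in both cocktails, whose cells had all been selected through a TroponinT promoter. It was at 12.17, 12.29 and 12.54 in DMT cells, against 12.57, 12.40 and 12.61 in NGMT cells. The groups overlapped, with a log2 difference of -0.19, a 95% interval of -0.38 to -0.01 and an adjusted p of 0.196. Without DMT replicate 3 it was called lower (-0.30, adjusted p = 0.025). Genes of the ventricular sarcomere were at low signal in both cocktails: Myh7, the beta myosin heavy chain, averaged 6.3 in DMT and 6.2 in NGMT cells, and Myl2, the ventricular regulatory light chain, averaged 5.6 in DMT and 5.5 in NGMT cells, and neither passed the filter.

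**Figure D2:**
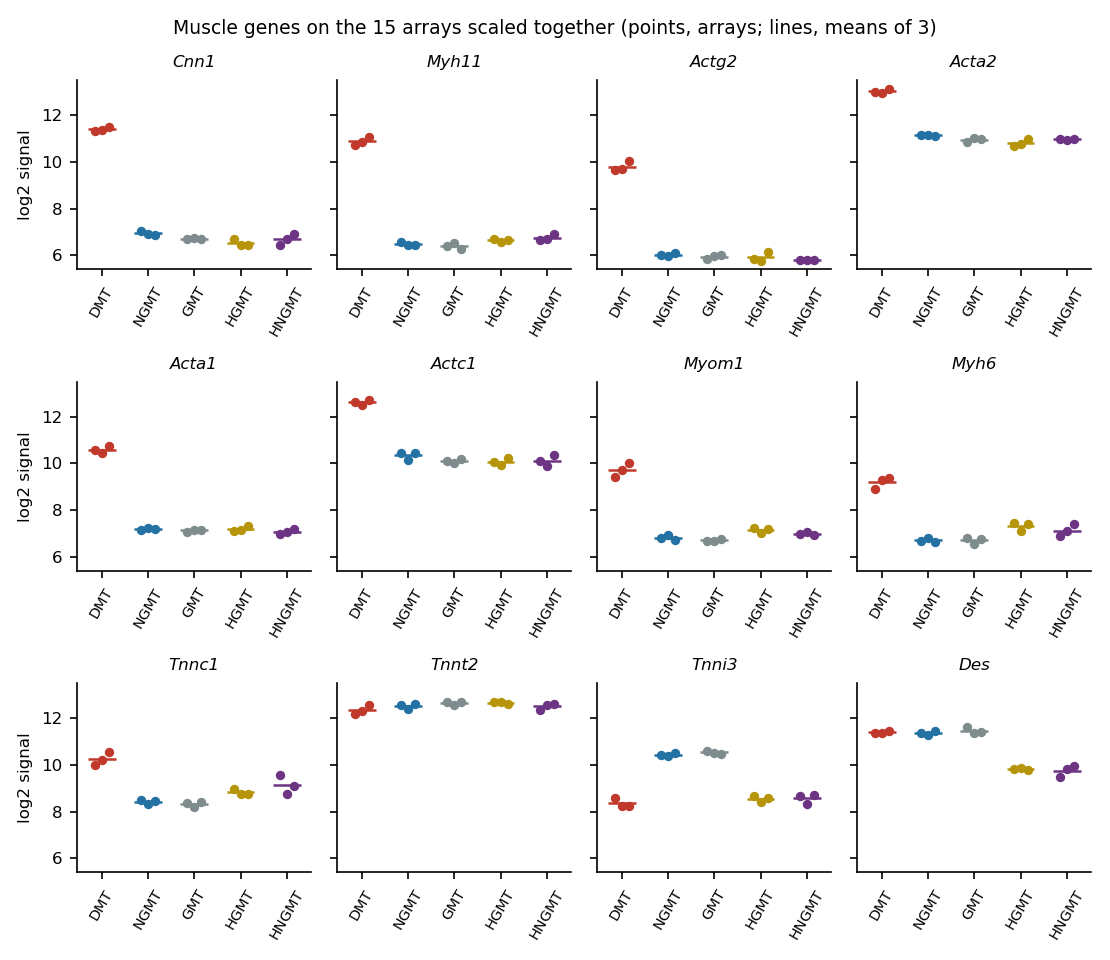
Log2 signal of 12 muscle genes on the 15 arrays (points, single arrays; lines, means of 3), with DMT at the left, then NGMT, GMT, HGMT and HNGMT. DMT lies above every other group at Cnn1, Myh11, Actg2, Acta2, Acta1, Actc1, Myom1, Myh6 and Tnnc1, Tnnt2 is close in all groups, and Tnni3 in DMT is as low as in the 2 HAND2 cocktails.

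Genes better known from skeletal muscle were higher as well, while the skeletal lineage factors stayed at low signal. Of 35 measured genes in the skeletal muscle list, 15 were tested, and 9 were called higher and none lower by limma (0 lower at an unadjusted p under 0.05). The shares were 60% and 0%, against 6.98% and 7.37% of all tested genes. All 3 DMT arrays were above all 12 others at each of the 9, as at 624 of the 797 genes called higher. Myod1, Myog, Myf5 and Myf6, the 4 myogenic determination factors, did not pass the filter and averaged 6.3, 5.6, 5.0 and 5.8 in DMT cells, against 6.3, 5.6, 5.0 and 5.7 in NGMT cells. Over the 35 genes, 18 were below the array median on all 6 arrays.

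Acta1, skeletal alpha-actin, which is also made in embryonic heart, rose most. It read 10.56, 10.46 and 10.72 in DMT cells, against 7.13, 7.21 and 7.20 in NGMT cells, a 10.6-fold difference (log2 difference 3.40 ± 0.08 SE, adjusted p = 7.82e-13). Mylpf, the fast regulatory myosin light chain, was at 7.61, 7.51 and 7.59 in DMT cells, against 5.50, 5.41 and 5.53 in NGMT cells. The fast myosin heavy chains Myh1 (log2 difference 2.02) and Myh4 (1.71) also rose, from NGMT signals below the array median. Mylpf, Myh1 and Myh4 were below the array median in every group but DMT. They passed the filter through the DMT arrays alone, so they could not have been called lower. Ckm, the muscle creatine kinase, was at 8.49, 8.54 and 8.35 in DMT cells, against 7.03, 6.69 and 7.18 in NGMT cells.

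Other known targets of SRF and its coactivators of the MRTF family moved less. Of 30 tested, 11 were called higher and none lower (3 lower at an unadjusted p under 0.05), with log2 differences from -0.27 to 0.85 and a median of 0.08. The shares were 36.7% and 0%, against 6.98% and 7.37% of all tested genes. The largest rises were Anln, the cytoskeletal protein anillin (0.85), Ccn2, a matricellular growth factor (0.71), Filip1l, a filamin-interacting protein (0.69), and Tpm1, alpha-tropomyosin (0.69). Anln passed the filter through the DMT arrays alone, so it could not have been called lower. Immediate early SRF targets were not called: Fos had a log2 difference of -0.19, Egr1 of -0.02 and Junb of -0.05. The messages of Srf (0.20), Mrtfa (0.01) and Mrtfb (-0.08) were not called either.

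Among genes of calcium handling, 19 of 24 measured were tested, with 5 called higher and 4 lower (26.3% and 21.1%, against 6.98% and 7.37% of all tested genes). Srl, the calcium-binding sarcalumenin of the sarcoplasmic reticulum, was at 10.68, 10.84 and 11.12 in DMT cells, against 8.07, 8.10 and 8.04 in NGMT cells, a 7.01-fold difference. Casq2, the cardiac calsequestrin that stores calcium in that compartment, was at 8.44, 8.62 and 8.72 in DMT cells, against 6.26, 6.25 and 6.43 in NGMT cells. HGMT and HNGMT cells averaged 8.997 and 9.032 for this gene, above DMT. Jph2, a junctophilin that couples the cell membrane to the reticulum, was higher (0.58), as was Slc8a1, the sodium-calcium exchanger (0.45). Casq2 and Jph2 are also in the smooth muscle list and were counted there too.

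Ryr2, the cardiac calcium release channel, was lower. It was at 6.54, 6.49 and 6.59 in DMT cells, below the array median, against 7.21, 7.10 and 7.19 in NGMT cells, and the call was lost in a fit of all 28 arrays (log2 difference -0.41, adjusted p = 0.0563). A further 3 calcium channel subunits of the cell membrane were also lower, namely Cacna1d (-0.75), Cacna1g (-0.57) and Cacna1c (-0.40). The pump Atp2a2 had a log2 difference of 0.15 and the reticulum protein Trdn one of -0.03, and neither was called.

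Among channel and connexin genes, 11 of 23 measured were tested, with 5 called higher and 2 lower (45.5% and 18.2%, against 6.98% and 7.37% of all tested genes). Popdc2, a membrane protein of the heart and its conduction system, was at 8.96, 8.82 and 9.48 in DMT cells, against 7.53, 7.33 and 7.43 in NGMT cells. Hcn4, the pacemaker channel, was at 8.34, 8.25 and 8.45 in DMT cells, against 7.09, 6.82 and 6.71 in NGMT cells, a 2.78-fold difference. HGMT and HNGMT cells averaged 7.79 and 7.53 for Hcn4, between the other groups. The gap junction protein Gja1 (0.18) rose little. Popdc3 (-0.45) and Scn7a (-0.88) were lower, and the call of Scn7a was lost without DMT replicate 3, NGMT replicate 4 or NGMT replicate 5.

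Both cocktails gave a high Nppa signal, the feature for which they were set side by side, so their levels against the other groups are a description. Nppa was at 11.38, 11.22 and 11.51 in DMT cells, against 10.81, 10.21 and 10.62 in NGMT cells, and the GMT, HGMT and HNGMT means were 7.67, 6.16 and 8.38. Between the 2 cocktails, DMT was 1.77-fold higher (log2 difference 0.82 ± 0.15 SE, adjusted p = 0.00107), and the lowest DMT array lay above the highest NGMT array. The order of the group means was DMT, NGMT, HNGMT, GMT and HGMT.

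The rest of the natriuretic and atrial list did not move with Nppa. Of 16 measured genes, 12 were tested, 2 were called higher and 3 lower (16.7% and 25%, against 6.98% and 7.37% of all tested genes). The median log2 difference was -0.23. Nppb, encoding brain natriuretic peptide, was at 7.46, 7.21 and 7.38 in DMT cells, against 7.64, 7.36 and 7.60 in NGMT cells. The groups overlapped (log2 difference -0.18, 95% interval -0.39 to 0.03), although Nppb was called lower with the replicate block on the 6 arrays (adjusted p = 0.0324). The other call upwards, Fgf12 (0.26), was lost when DMT replicate 2, NGMT replicate 4 or NGMT replicate 6 was left out. Fgf12 passed the filter through the DMT arrays alone, so it could not have been called lower.

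Corin, the protease that cleaves the Nppa precursor, was lower in DMT cells, at 6.46, 6.24 and 6.41, against 6.95, 6.78 and 6.80 in NGMT cells, and all DMT values were below the array median. Myl4 was at 11.58, 11.51 and 11.68 in DMT cells, against 12.25, 12.04 and 12.22 in NGMT cells. Stard10, a lipid transfer protein, was lower (-0.56). Myl7, the atrial regulatory light chain, was at 10.67, 10.45 and 10.96 in DMT cells, against 11.02, 10.94 and 10.96 in NGMT cells, with a 95% interval of the log2 difference of -0.77 to 0.20. The signal of both atrial light chains was therefore high in both cocktails, and Myl4 alone of the pair was called.

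**Figure D3:**
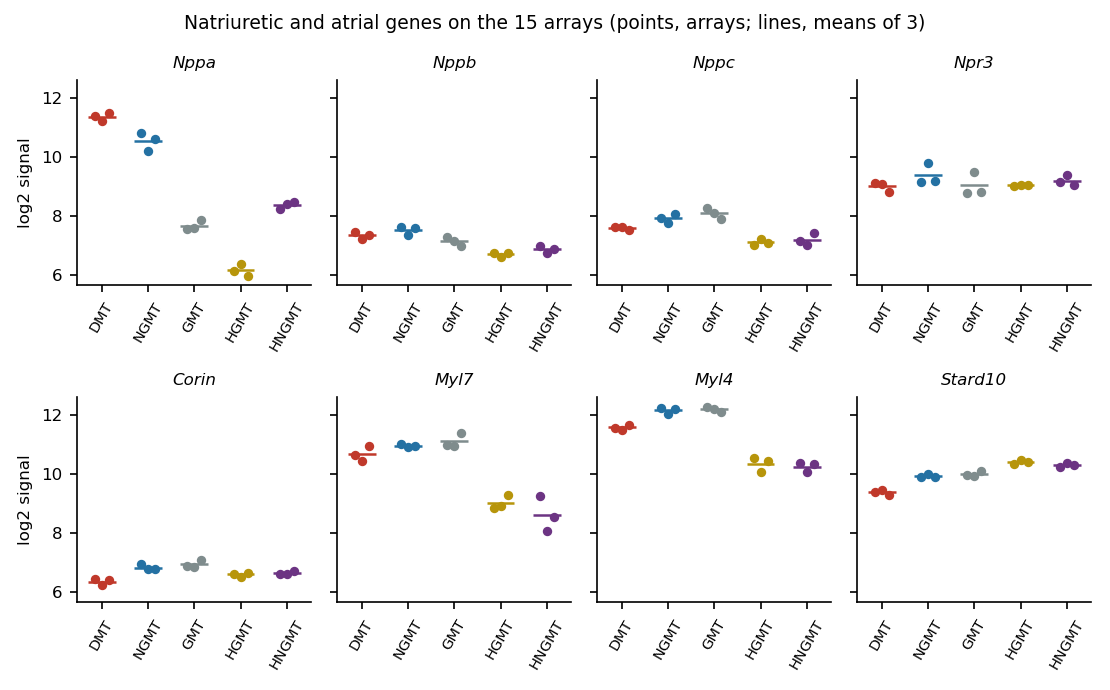
Log2 signal of 8 natriuretic and atrial genes on the 15 arrays (points, single arrays; lines, means of 3), DMT at the left and NGMT next to it. Nppa is highest in DMT, then NGMT, while Myl4, Corin and Stard10 are lower in DMT than in NGMT.

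The Nppa window is printed because NKX2.5 binds a short element, here searched as TNAAGTG, and GATA factors bind another, here searched as AGATAA alone. Capitals mark the 1 match to TNAAGTG.
Nppa, chr4:148000472-148000771, plus strand: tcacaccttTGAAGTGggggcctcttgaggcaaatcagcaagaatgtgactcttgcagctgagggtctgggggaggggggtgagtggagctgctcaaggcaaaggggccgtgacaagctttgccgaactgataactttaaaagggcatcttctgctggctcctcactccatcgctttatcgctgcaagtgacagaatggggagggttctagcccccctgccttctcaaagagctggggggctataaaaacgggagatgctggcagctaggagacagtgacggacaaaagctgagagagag

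The match lies at -241 to -235, and the window holds no AGATAA and no CArG box in the letters searched. It does hold TGATAA, and other forms of these elements were not searched, so a GATA site is not excluded. On both strands TNAAGTG was in 13.1% and AGATAA in 12.7% of the windows of all genes. Among genes called lower at least 2-fold in DMT cells, each of the pair was in 18.3% of windows, among those called higher at least 2-fold TNAAGTG was in 9.41% and AGATAA in 5.88%, and among tested genes TNAAGTG was in 10.3% and AGATAA in 7.38%.

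Of the 6 delivered factors, Myocd alone differed. Its signal was 9.57, 9.58 and 9.80 on the DMT arrays, against 6.21, 6.16 and 6.21 on the NGMT arrays, which were below the array median (10.98-fold, adjusted p = 7.82e-13). Myocd passed the filter through the DMT arrays alone, so it could not have been called lower. Gata4 and Nkx2-5, which NGMT delivers and DMT does not, showed no such gap. Gata4 was at 6.79, 6.72 and 6.98 in DMT cells, against 7.09, 6.99 and 7.05 in NGMT cells, with a log2 difference of -0.21 and a 95% interval of -0.40 to -0.02 (adjusted p = 0.154, or 0.0489 with the replicate block on the 6 arrays). Nkx2-5 was at 7.94, 7.95 and 8.04 in DMT cells, against 7.95, 7.92 and 8.02 in NGMT cells, with a 95% interval of -0.12 to 0.15.

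Whether a probe set lies in the delivered sequence of a factor or only in the cell's own message is not stated in the labels, so Gata4 and Nkx2-5 signals are no check of delivery. Hand2 was near 7.3 in both DMT and NGMT cells (means of 7.34 in DMT and 7.32 in NGMT cells) and averaged 10.07 in HGMT and 10.00 in HNGMT cells, which received it. Mef2c had a log2 difference of 0.14 (95% interval -0.05 to 0.34) and Tbx5 one of -0.01 (-0.29 to 0.27). Mef2c was called with the replicate block on the 6 arrays (adjusted p = 0.032).

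Of 25 other cardiac transcription factors and cofactors tested, 3 were called, 8% higher and 4% lower, against 6.98% and 7.37% of all tested genes. Hey1, a Notch target and repressor (0.76), and Tbx18, a T-box factor of the epicardium and sinus node (0.74), were higher. Hey1 passed the filter through the DMT arrays alone, so it could not have been called lower. Ankrd1, a cofactor and stretch-responsive protein of muscle, was at 9.99, 10.18 and 10.26 in DMT cells, against 10.83, 10.51 and 10.93 in NGMT cells.

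Rises of at least 4-fold also included genes outside these muscle lists. Pilra, an inhibitory immune receptor, was at 9.43, 9.68 and 9.55 in DMT cells, against 5.52, 5.25 and 5.27 in NGMT cells. Efhd1, a mitochondrial calcium-binding protein, was at 11.19, 10.91 and 11.55 in DMT cells, against 7.03, 6.96 and 7.09 in NGMT cells, an 18.2-fold difference. Tm6sf1 (log2 difference 3.84), Entpd1, an enzyme that degrades extracellular ATP (3.14), Ceacam1, a cell adhesion receptor (2.77), and Egln3, an oxygen-sensing prolyl hydroxylase (2.67), followed. Of the 109 rises of at least 2-fold, 42 started from NGMT signals below the array median on all 3 arrays, so their folds may be understated. Pilra, Tm6sf1, Entpd1 and Ceacam1 passed the filter through the DMT arrays alone, so they could not have been called lower.

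Receptors and basement membrane genes that attach muscle cells to matrix were mostly on the higher side. Of 35 integrin and adhesion genes tested, 15 were called higher and 6 lower (42.9% and 17.1%, against 6.98% and 7.37% of all tested genes), with a median of 0.22. Itga8, an integrin of smooth muscle, was at 9.45, 9.56 and 9.76 in DMT cells, against 7.80, 7.75 and 7.59 in NGMT cells. HGMT and HNGMT cells, at 9.62 and 9.58, were as high as DMT. Itga7, the laminin receptor of muscle, was at 9.35, 9.41 and 9.45 in DMT cells, against 8.25, 8.11 and 8.34 in NGMT cells. Itga4 (1.21) also rose. Cdh2, the N-cadherin that joins cardiomyocytes, was lower, at 9.27, 9.30 and 9.37 in DMT cells, against 10.12, 10.06 and 10.19 in NGMT cells, and so was the leukocyte adhesion receptor Vcam1 (-0.68).

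Fibroblast and matrix genes stayed at high signal in both cocktails. Of 55 tested, 3 were called higher and 11 lower (5.45% and 20%, against 6.98% and 7.37% of all tested genes). The 95% interval lay within 0.5 of 0 for 35 of the 55, against 85.6% of all tested genes. Col1a1, the main collagen of fibroblasts, was at 12.21, 12.47 and 12.32 in DMT cells, against 12.26, 12.46 and 12.19 in NGMT cells. The falls were led by Fbln1, a matrix glycoprotein, at 9.87, 9.41 and 9.33 in DMT cells, against 11.19, 11.23 and 11.13 in NGMT cells. Col14a1, a fibril-associated collagen (-1.54), Has2, a hyaluronan synthase (-1.45), Mfap4 (-1.06) and Dpt, dermatopontin (-0.88), were also lower. The count of falls was 19 when the 6 arrays alone were fitted and 23 with the replicate block on them.

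TGF-beta and BMP genes were divided, with 7 of 27 tested called higher and 6 lower (25.9% and 22.2%, against 6.98% and 7.37% of all tested genes). The ligand Tgfb3 was higher, at 11.11, 11.24 and 11.43 in DMT cells, against 10.44, 10.61 and 10.42 in NGMT cells. Tgfbi, a secreted protein induced by TGF-beta, was lower, at 10.23, 10.30 and 9.97 in DMT cells, against 11.41, 11.49 and 11.41 in NGMT cells. Bmp4 was higher (0.56). These 2 counts were less stable than most: 4 were called higher without DMT replicate 2, and 3 were called lower without DMT replicate 3, NGMT replicate 5 or NGMT replicate 6.

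Of 21 tested genes of Notch and Wnt signalling, 3 were called higher and 3 lower (14.3% each way, against 6.98% higher and 7.37% lower among all tested genes). Sfrp1, a secreted antagonist of Wnt, was at 10.86, 10.08 and 9.67 in DMT cells, against 12.12, 12.24 and 12.14 in NGMT cells. Sfrp2, its relative, was lower too (-1.14). The ligand Wnt5a fell (-0.51), and Nkd1, a target and inhibitor of Wnt signalling, rose (0.74).

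Interferon-stimulated genes were lower in DMT cells. Interferons act through receptors that activate STAT and IRF factors, which bind an element called the ISRE and induce antiviral proteins. Of 30 measured genes in the interferon list, 29 were tested, 26 were called lower and none higher (0 higher at an unadjusted p under 0.05), against 7.37% called lower among all tested genes, and the median log2 difference was -0.69. Mean log2 signal over the 30 genes was 8.74, 8.70 and 8.77 on the DMT arrays, against 9.40, 9.41 and 9.53 on the NGMT arrays.

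Oas2, an antiviral oligoadenylate synthetase, was at 8.45, 8.14 and 8.43 in DMT cells, against 10.52, 10.40 and 10.62 in NGMT cells, 4.51-fold lower in DMT cells (log2 difference -2.17 ± 0.20 SE, adjusted p = 2.11e-06). Irf7, a factor that amplifies the response, was at 8.97, 8.94 and 9.12 in DMT cells, against 10.18, 10.23 and 10.32 in NGMT cells. Oasl2 was at 9.71, 9.65 and 9.89 in DMT cells, against 11.06, 11.03 and 11.25 in NGMT cells. Psmb9, an immunoproteasome subunit, was at 8.37, 8.34 and 8.28 in DMT cells, against 9.49, 9.42 and 9.46 in NGMT cells. Each of these genes was without overlap between the 2 cocktails. The 3 tested genes not called were Ifi27 (-0.08), Ifit2 (-0.13) and Ifitm1 (-0.22).

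The lower interferon signal was shared with the HAND2 cocktails at most of these genes. The HGMT mean was nearer to DMT than to NGMT at 21 of the 26, and the HNGMT mean at 19 of the 26, while the GMT mean was nearer to NGMT at all 26. At 6 of the 26 all 3 DMT arrays were below all 12 other arrays. Among all 842 genes called lower, 492 had that pattern, a larger share than in the interferon list. Without HNGMT replicate 1, which stood apart from its group, the HNGMT mean was nearer to DMT at 21 of the 26. The DMT arrays were then below the 11 others at 9 of the 26, against 569 of the 842 genes called lower. For comparison, the HGMT mean was nearer to DMT at 39 of the 122 falls of at least 2-fold, and at 9 of the 109 rises.

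Other genes with interferon-linked names or roles were among the largest falls. Slfn5, a member of the interferon-responsive schlafen family, was at 6.96, 6.76 and 6.75 in DMT cells, against 9.87, 9.94 and 9.91 in NGMT cells, 8.48-fold lower in DMT cells. Iigp1, an interferon-inducible GTPase, was at 7.32, 7.23 and 7.14 in DMT cells, against 9.92, 10.09 and 10.22 in NGMT cells. Gm4951 (log2 difference -3.13) and BC023105 (-2.22) fell with it. Sp100, a nuclear body protein, was at 6.37, 6.29 and 6.38 in DMT cells, below the array median, against 8.94, 8.77 and 9.05 in NGMT cells, and HGMT and HNGMT cells were as low as DMT, at 6.24 and 6.37.

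The windows of Oas3 and Ifit1, members of the interferon list, were added after the values were seen, to show the ISRE, searched as GAAANNGAAA on both strands. Capitals mark the matches.
Oas3, chr5:120777610-120777909, minus strand: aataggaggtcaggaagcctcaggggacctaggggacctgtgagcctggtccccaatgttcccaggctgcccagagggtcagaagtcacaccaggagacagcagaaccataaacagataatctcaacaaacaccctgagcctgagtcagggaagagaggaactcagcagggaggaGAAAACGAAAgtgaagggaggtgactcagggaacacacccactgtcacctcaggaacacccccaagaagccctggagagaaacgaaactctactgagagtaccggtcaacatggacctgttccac
Ifit1, chr19:34640639-34640938, plus strand: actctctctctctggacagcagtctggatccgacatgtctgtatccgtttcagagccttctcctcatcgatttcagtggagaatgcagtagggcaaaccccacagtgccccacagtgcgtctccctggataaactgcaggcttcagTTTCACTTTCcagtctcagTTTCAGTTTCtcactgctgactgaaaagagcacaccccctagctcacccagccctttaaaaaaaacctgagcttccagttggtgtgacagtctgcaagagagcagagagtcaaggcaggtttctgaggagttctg

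The Oas3 match lies at -75 to -66, and the Ifit1 matches lie at -104 to -95 and -85 to -76 and read on the opposite strand. This motif was in 3.99% of windows of all genes and 3.57% of those of tested genes. It was in 20 of 82 windows (24.4%) of genes called lower at least 2-fold in DMT cells, in 3.53% of those called higher at least 2-fold, and in 12 of 22 windows of the interferon genes called lower. Oas3 itself was at 6.32, 6.45 and 6.51 in DMT cells, against 7.49, 7.43 and 7.85 in NGMT cells, and Ifit1 was at 10.268, 10.393 and 10.491 in DMT cells, against 10.996, 11.143 and 11.325 in NGMT cells.

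Cytokine and acute phase genes were lower as well. Of 21 tested genes in the inflammatory list, 13 were called lower (61.9%, against 7.37% of all tested genes) and none higher (0 higher at an unadjusted p under 0.05), with a median of -0.28. C4b, Cfb and Serping1 are not in that list; they are named because they were among the largest falls, and complement genes as a group were not counted. C4b, a complement component, was at 8.57, 6.77 and 6.92 in DMT cells, against 10.77, 10.72 and 10.62 in NGMT cells. DMT replicate 1 was well above its 2 partners, yet all 3 were below every NGMT array (log2 difference -3.29 ± 0.32 SE, and -3.86 without DMT replicate 1). Cfb, complement factor B, was at 7.54, 7.03 and 6.69 in DMT cells, against 9.98, 10.26 and 9.86 in NGMT cells.

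Serping1, the inhibitor of the first complement component, was at 10.303, 9.915 and 9.720 in DMT cells, against 12.004, 12.212 and 12.089 in NGMT cells. Cxcl5, a neutrophil chemokine, was at 10.33, 9.74 and 9.25 in DMT cells, against 11.20, 11.39 and 10.92 in NGMT cells, and Lcn2, an iron-binding acute phase protein, was at 10.50, 10.08 and 8.85 in DMT cells, against 11.03, 11.58 and 10.91 in NGMT cells. Saa3, an acute phase apolipoprotein (-1.49), and Ccl5, a T cell chemokine (-1.09), were also lower. The spread among DMT arrays was wide at several of these genes, with replicate 1 nearest to NGMT.

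Most markers of macrophages were below the array median, and none of the 5 tested was called by limma over the 15 arrays (1 was higher and 1 lower at an unadjusted p under 0.05). The highest of the 5 were Cd68, at a mean of 9.7 in DMT and 9.6 in NGMT cells, and Trem2, at 9.5 in DMT and 9.2 in NGMT cells. In the fit of the 6 arrays alone, Trem2 was called higher (0.32) and Cd53, a leukocyte membrane protein, lower (-0.71). Of 21 measured macrophage genes, 16 were below the array median on all 6 arrays, among them the pan-leukocyte gene Ptprc, at a mean of 6.0 in DMT and 6.0 in NGMT cells. Lyz2, a macrophage lysozyme, read 5.92, 6.07 and 6.24 in DMT cells, against 8.59, 6.29 and 6.70 in NGMT cells, so NGMT replicate 4 alone was high. The mean log2 signal over the 21 genes ranged from 6.16 to 6.18 on the DMT arrays and from 6.20 to 6.49 on the NGMT arrays. Their part in the falls of the inflammatory and interferon genes was not tested.

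**Figure D4:**
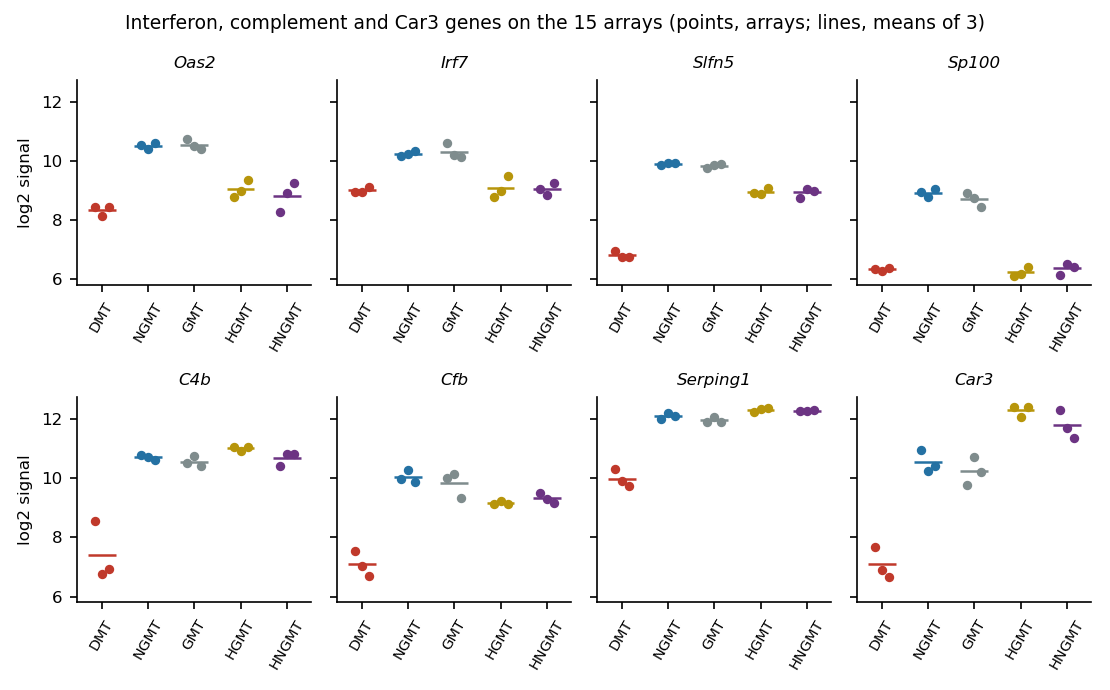
Log2 signal of 4 interferon-linked genes, 3 complement genes and Car3 on the 15 arrays (points, single arrays; lines, means of 3), DMT at the left and NGMT next to it. Oas2, Irf7 and Sp100 are low in DMT, HGMT and HNGMT, while C4b, Serping1 and Car3 are low in DMT alone.

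Adipocyte and mesothelial genes were also lower in DMT cells. Of 14 tested adipocyte genes, 8 were called lower (57.1%, against 7.37% of all tested genes) and none higher (1 higher at an unadjusted p under 0.05). All 3 DMT arrays were below all 12 others at each of the 8, against 492 of the 842 genes called lower (4.31% of all tested genes). Their median log2 difference was -0.48, and the mean log2 signal over the 17 measured genes was 7.51, 7.33 and 7.36 on the DMT arrays, against 8.13, 7.97 and 7.93 on the NGMT arrays. Car3, a carbonic anhydrase abundant in fat, had the largest fall of the 11426 tested genes. It was at 7.69, 6.90 and 6.67 in DMT cells, against 10.95, 10.23 and 10.41 in NGMT cells, 10.9-fold lower in DMT cells.

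Pparg, the master regulator of fat cells, was at 8.21, 7.96 and 7.96 in DMT cells, against 9.38, 9.33 and 9.29 in NGMT cells. Lpl, lipoprotein lipase, was at 8.20, 7.84 and 7.56 in DMT cells, against 9.38, 9.18 and 9.05 in NGMT cells. Fabp4, a fatty acid carrier of mature fat cells, was at 10.12, 10.21 and 9.89 in DMT cells, against 10.45, 10.18 and 10.08 in NGMT cells, which overlapped. The defining fat hormone Adipoq was at 6.43, 6.42 and 6.38 in DMT cells, below the array median, against 7.54, 7.18 and 7.18 in NGMT cells, and was not called (adjusted p = 0.0634).

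Of 15 tested epithelial and mesothelial genes, 7 were called lower and 1 higher (46.7% and 6.67%, against 7.37% and 6.98% of all tested genes). Upk1b, an uroplakin of mesothelium and urothelium, was at 6.09, 5.92 and 6.05 in DMT cells, below the array median, against 8.61, 8.54 and 9.01 in NGMT cells, 6.48-fold lower in DMT cells. Aldh1a2, which makes retinoic acid in mesothelium and epicardium, was at 7.01, 6.98 and 6.63 in DMT cells, against 8.75, 9.12 and 8.95 in NGMT cells. Msln, mesothelin, was at 7.34, 7.43 and 7.58 in DMT cells, against 8.50, 8.50 and 8.88 in NGMT cells. Krt18, a keratin of simple epithelia, went the other way, at 9.14, 9.38 and 9.84 in DMT cells, against 8.15, 8.14 and 8.53 in NGMT cells. Without NGMT replicate 6 the count of falls was 4. The defining epithelial genes Epcam and Cdh1 did not pass the filter, with means of 5.4 and 6.1 in DMT cells and the same in NGMT cells.

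Genes of other cell types were also called. Of 10 tested endothelial genes, 3 were higher and 2 lower (30% and 20%, against 6.98% and 7.37% of all tested genes). Among them were the junction protein Esam (1.09) and Ramp2, a receptor partner (-0.71). Esam passed the filter through the DMT arrays alone, so it could not have been called lower. Tek (-0.47), the other fall, was below the array median on all arrays of both cocktails. The call of Eng (0.36) was lost without DMT replicate 1. That of Plvap (0.34) was lost without DMT replicate 1, DMT replicate 3, NGMT replicate 5 or NGMT replicate 6. Pecam1 and Kdr, which define endothelium, averaged 5.8 and 5.2 in DMT cells, against 5.7 and 5.3 in NGMT cells, and did not pass the filter. Of 14 tested cartilage and bone genes, 4 were called higher and 1 lower. At each of the 4, all 3 DMT arrays were above all 12 other arrays, as at 624 of the 797 genes called higher. These calls made up 28.6% higher and 7.14% lower, against 6.98% and 7.37% of all tested genes. Acan, the proteoglycan aggrecan, was at 6.87, 7.69 and 7.22 in DMT cells, against 5.59, 5.70 and 5.63 in NGMT cells. It also passed the filter through the DMT arrays alone. Dmp1, a dentin and bone matrix protein (1.27), Ibsp, the bone sialoprotein (1.06), and Col10a1, the collagen of hypertrophic cartilage (0.51), were the other rises, and the call of Ibsp was lost without DMT replicate 2, NGMT replicate 4 or NGMT replicate 6. Epyc, a small proteoglycan of cartilage, was at 9.47, 9.23 and 8.88 in DMT cells, against 11.07, 11.16 and 11.16 in NGMT cells. Of the neural list, Nes, the intermediate filament nestin, rose (1.09), and Stmn2, a tubulin-binding protein of neurons, fell (-0.60).

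Other large falls were Trf, the iron carrier transferrin, at 6.56, 6.46 and 6.49 in DMT cells, below the array median, against 8.56, 8.87 and 8.60 in NGMT cells, Gpr165 (log2 difference -2.68) and Plac8 (-2.12). Egfl6, a secreted matrix protein, was at 8.72, 7.17 and 6.51 in DMT cells, against 10.28, 10.04 and 9.56 in NGMT cells. The 3 DMT values were far apart, and the log2 difference of -2.49 became -3.12 without DMT replicate 1.

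Few proliferation, DNA damage and mitochondrial genes were called between the cocktails. Of 16 tested cell cycle genes, all had a 95% interval within 0.5 of 0, against 85.6% of all tested genes. The 1 call, Ccne1, cyclin E1 (log2 difference 0.20), was lost whenever DMT replicate 1, 2 or 3 or NGMT replicate 4 or 6 was left out. Mki67, Top2a and 13 others of the 31 measured cell cycle genes did not pass the filter, Mki67 averaging 6.2 in DMT and 6.1 in NGMT cells. Of 27 tested genes of the p53 response, 25 had an interval within 0.5 of 0, against the same 85.6%. The 1 call, Apaf1, the apoptosome scaffold (-0.16), was lost with the replicate block over the 15 arrays (adjusted p = 0.0634) and when any of the 6 arrays was left out. Of 32 tested genes of oxidative metabolism, 27 had such an interval, near the share over all tested genes. The shares called, 3.12% higher and 6.25% lower, were no larger than the 6.98% and 7.37% over all tested genes. Idh3a, a subunit of a citric acid cycle enzyme, was called higher (0.35). Pdk4, a kinase that inhibits pyruvate dehydrogenase (-0.39), and the fatty acid transporter Cd36 (-1.69) were called lower. The call of Cd36 was lost without DMT replicate 1, 2 or 3 or NGMT replicate 4.

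Glycolysis genes leaned upwards. Of 19 tested, 5 were called higher and 1 lower (26.3% and 5.26%, against 6.98% and 7.37% of all tested genes), with a median of 0.23. Aldoc, an aldolase, was at 7.70, 8.45 and 8.32 in DMT cells, against 6.62, 6.98 and 6.62 in NGMT cells. Pgk1, phosphoglycerate kinase, was at 12.16, 12.37 and 12.37 in DMT cells, against 11.80, 12.02 and 11.84 in NGMT cells. The count of rises depended on the fit: it was 15 in a fit of the 6 arrays alone and 3 without DMT replicate 2 or DMT replicate 3. The fall, Hk2 (-0.43), lost its call when any of the 6 arrays was left out. Among the rises, Aldoa (0.21) lost its call without DMT replicate 2, DMT replicate 3, NGMT replicate 5 or NGMT replicate 6. Both calls were also lost after quantile normalization.

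**Figure D5:**
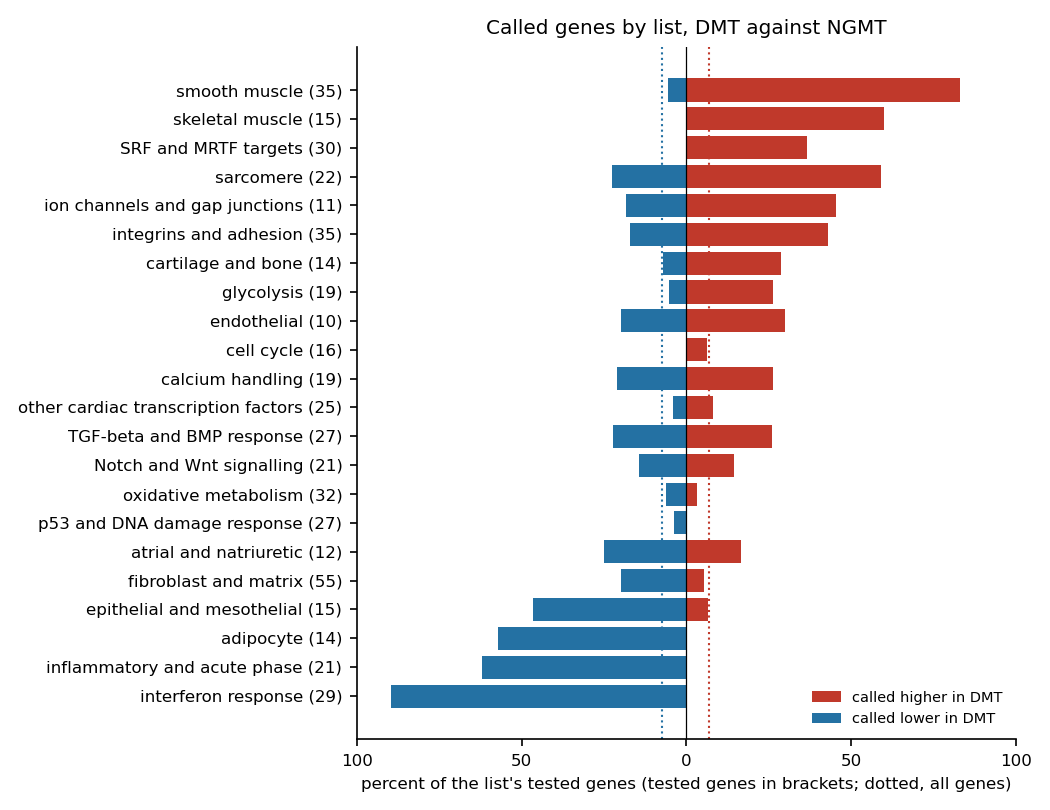
For each gene list with at least 10 tested genes, the bar to the right gives the percentage of tested genes called higher in DMT than in NGMT and the bar to the left the percentage called lower, with dotted lines at the values for all tested genes (6.98% and 7.37%). The smooth muscle list (82.9% higher) and the interferon list (89.7% lower) reach farthest to each side.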

How the data were processed

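Total RNA was labelled with biotin and hybridized to single-channel arrays, per the labels. The authors deposited log2 signals of 35556 probe sets on 28 arrays, and MAS5 is the only tool named, per the submitters' processing notes. How signals were summarized and scaled is not stated there. Of the probe sets, 21789 had 1 gene symbol, 1621 several and 12146 none, and the probe set with the highest mean over all arrays stood for its gene. Distances between sorted array values gave 3 sets, and the set of 15 holding the 6 arrays was used.

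Differences were fitted with limma 3.58.1 in R 4.3.3 (lmFit, contrasts, eBayes with trend, group as the only term, 10 residual degrees of freedom, two-sided, Benjamini-Hochberg over 11426 genes), and no sample was dropped or imputed. With arrays, the number per group limits the precision: the median half-width of a 95% interval was 0.17 log2. On simulated data, 86% of changes of 0.5 and 98% of changes of 1 were recovered, with 7 false calls. The simulation had independent normal noise, few changed genes and no replicate or array effects, so these rates may not hold for the data.

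Replicate numbers came from the description labels. Deviations of same-numbered DMT and NGMT arrays correlated at 0.126, 0.332 and 0.364, against -0.334 to 0.069 for arrays of unlike number. These low values do not establish that the samples were paired. The main fit used the group alone, and fits with the number as a block were run beside it. Other alternatives were other array sets, scalings, filters, probe set rules and leaving out each array.

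The members and the 26 gene lists were chosen with earlier results of these data known. Named were the 6 delivered factors, Nppa, Nppb, Tnnt2, the 15 largest non-overlapping rises and falls, and up to 5 called genes per list (up to 2 of smallest p where under 2 were called); further list members were named after their values were seen. Of 736 list entries, 695 were measured and 524 tested. The lists share members, so the counts of different lists are not separate evidence. Casq2, Jph2 and Itga8 count among the smooth muscle genes as well, and Tpm1 and Myl4 among the sarcomere genes. Promoter windows are from RefSeq, and CArG, ISRE, NKX2.5 and GATA motifs were searched as letters.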

Additional observations from a re-analysis of the deposited data

How the results depend on the processing

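None of the called genes among the 131 named changed direction under any alternative run. Genes called numbered 1639, against 2593 when only the 6 arrays were fitted, 3039 with the replicate block on the 6 arrays, 2457 over all 28 arrays and 2455 without HNGMT replicate 1 (the last and the 6-array block were chosen after seeing the data). Of the 2593, 1628 were among the 1639. HNGMT replicate 1 deviated from its group against replicates 2 and 3 (correlations of -0.834 and -0.897) and does not enter the DMT minus NGMT difference itself. It enters the estimate of the spread, the filter, the HNGMT means and the counts against the other arrays; without it, the called interferon genes with an HNGMT mean nearer to DMT numbered 21, against 19. The other alternatives gave 1608 to 1771, the replicate block over the 15 arrays 1619, and leaving out 1 array 1182 to 1445. Genes called at 2-fold or more numbered 204 to 254 over all alternatives. Fibroblast and matrix genes called lower numbered 11, against 19 on the 6 arrays and 23 with the replicate block on them. Glycolysis genes called higher numbered 5, against 15 on the 6 arrays and 15 with the replicate block on them, 8 over all 28 arrays, 9 after centring arrays on their median, 12 without HNGMT replicate 1, and 3 to 6 when 1 array was left out. Leaving out 1 array gave TGF-beta and BMP counts of 4 to 6 higher and 3 to 5 lower, and 4 to 7 epithelial and mesothelial genes lower. The causes were not tested. Among single named genes and alternatives, 2159 values kept their side of the threshold, 50 lost it and 14 passed it. The replicate block over the 15 arrays changed no other call of a named gene than that of Apaf1. All 62 called genes with another probe set above the filter had the same sign there.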
